A study of Mus musculus with 12 samples.

Results

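The GIMAP genes (GTPases of immunity-associated proteins) are a family of lymphocyte GTPases, of which the 8 mouse members Gimap1, Gimap3, Gimap4, Gimap5, Gimap6, Gimap7, Gimap8 and Gimap9 were followed across T cell populations. Each was read from a probe set whose annotated symbol is that member alone, and for Gimap1, which has 2 such probe sets, the brighter by its mean over the 12 arrays was used. The 8 genes are part of 22180 named genes, and all 8 passed the filter on dim genes that left 16667 genes. The family was chosen by the values of Gimap4, whose level is low in iNKT17 cells of one strain. Its values are therefore given as a description with no test, and the tests below concern the other 7 members.

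RNA from each sample was hybridised to its own Affymetrix whole-transcript array. The labels give the strain and the cell phenotype of 5 groups: BALB/c iNKT17 cells (3 arrays), BALB/c ROR- cells (3), B6 iNKT17 cells (2), B6 gamma-delta 17 cells (2) and B6 ROR- cells (2). The iNKT17 cells are invariant natural killer T cells of the type 17 kind. The labels mention no treatment, and they state neither the age of the mice nor the organ, the sort of the cells or the receptor of the ROR- cells. Nothing says that replicates came from separate mice, so the p-values cover no more than the variation among these samples, which could be technical. All values are on a log2 scale as deposited, where 1 unit is a doubling, and levels of different genes are not set against each other because probe sets differ in brightness.

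GIMAP proteins bind guanine nucleotides and, in many cases, sit on intracellular membranes. They are best known in lymphocytes, where several members are needed for the survival or the normal turnover of T cells. In the mouse, Gimap5 and Gimap1 are required to keep peripheral T cells alive, Gimap3 is a close relative of Gimap5, Gimap4 affects how quickly dying T cells complete apoptosis, and Gimap6 takes part in autophagy.

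The 8 genes stand next to each other on mouse chromosome 6 in the order Gimap8, Gimap9, Gimap4, Gimap6, Gimap7, Gimap1, Gimap5 and Gimap3. Promoter windows from RefSeq (GRCm38.p6, 250 bases before to 50 bases after the annotated start) were found for all 8, as 9 windows. Those of Gimap4, Gimap6 and Gimap7 are shown because these members had the largest differences between B6 iNKT17 and B6 ROR- cells, and one of the Gimap8 windows is shown because that member had the smallest. Capitals mark matches to the motifs named in the next paragraph. Each sequence reads 5′ to 3′ on the gene's strand, and the windows lie at chr6:48684328-48684627 (plus strand) for Gimap4, chr6:48708195-48708494 (minus strand) for Gimap6, chr6:48718371-48718670 (plus strand) for Gimap7 and chr6:48646984-48647283 (plus strand) for Gimap8.
Gimap4: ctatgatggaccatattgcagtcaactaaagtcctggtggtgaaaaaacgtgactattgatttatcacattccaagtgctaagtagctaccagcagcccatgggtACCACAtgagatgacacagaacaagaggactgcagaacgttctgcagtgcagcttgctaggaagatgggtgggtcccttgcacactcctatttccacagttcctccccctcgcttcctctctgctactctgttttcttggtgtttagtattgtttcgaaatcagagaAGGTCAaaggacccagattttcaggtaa
Gimap6: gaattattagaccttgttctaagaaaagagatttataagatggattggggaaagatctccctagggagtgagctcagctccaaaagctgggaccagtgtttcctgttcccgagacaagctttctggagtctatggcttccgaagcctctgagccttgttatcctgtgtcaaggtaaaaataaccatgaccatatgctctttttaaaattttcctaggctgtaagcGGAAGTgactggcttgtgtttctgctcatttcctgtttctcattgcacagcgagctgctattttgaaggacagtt
Gimap7: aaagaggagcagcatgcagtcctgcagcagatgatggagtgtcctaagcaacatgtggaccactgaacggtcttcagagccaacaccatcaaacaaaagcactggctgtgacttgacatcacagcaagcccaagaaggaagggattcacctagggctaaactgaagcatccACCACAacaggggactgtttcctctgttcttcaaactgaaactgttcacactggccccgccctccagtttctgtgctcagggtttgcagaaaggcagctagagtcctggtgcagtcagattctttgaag
Gimap8: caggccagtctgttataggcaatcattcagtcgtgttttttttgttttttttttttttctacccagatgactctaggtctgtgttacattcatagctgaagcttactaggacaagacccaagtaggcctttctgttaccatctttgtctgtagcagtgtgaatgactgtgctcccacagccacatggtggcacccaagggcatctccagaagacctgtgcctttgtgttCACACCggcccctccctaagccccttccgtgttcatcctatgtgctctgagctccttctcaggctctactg

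6 motifs were searched on both strands of the 9 windows and of all 32851 promoter windows in the same table. The nuclear receptor half-site AGGTCA was found in the Gimap4 window alone, 22 bases past the start, and in 16.3% of all windows. The RUNX motif TGTGGT lay in 3 of the 9 windows (Gimap1, Gimap4 and Gimap7), against 16.8% of all, and the ETS motif GGAAGT in 4 of the 9 (Gimap1, Gimap5, Gimap6 and Gimap9), against 23.8%. The T-box half-site GGTGTG was found in 3 windows, both of Gimap8, which overlap and share 1 match, and that of Gimap3, against 19.0%. The FOXO motif GTAAACA was found in the Gimap3 window, against 3.65% of all, and the GATA motif AGATAA in 0 of the 9, against 11.2%. No 2 matches overlapped by their letters in the 4 windows printed above. The windows held 2 to 8 CpG dinucleotides each, with a median of 7 over all windows, and 43.3% to 57.3% G and C, with a median of 52.7% over all. These matches describe the letters of the windows and were not tied to binding in these cells.

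The labels were checked against marker genes. Il23r, the interleukin-23 receptor of type 17 cells, lay at 9.53 to 10.29 on the iNKT17 and gamma-delta 17 arrays, against 2.93 to 7.0 on the ROR- arrays. The T cell gene Cd3e lay between 11.09 and 11.75 on all 12 arrays. A pair of arrays stood apart from their groups. BALB/c ROR- replicate 2 held the Il23r value of 7.0 and averaged 6.28 over the 7 type 17 markers read, where the other ROR- arrays averaged 4.81 to 5.16. B6 gamma-delta 17 replicate 1 averaged 6.28 over the 6 neutrophil markers, where the other 11 arrays averaged 3.38 to 3.53. Its S100a8 value was 9.30, against 2.29 on replicate 2, and its means over the type 1, myeloid and immature thymocyte markers were 6.94, 4.38 and 4.97, against 5.54, 3.87 and 3.66 on replicate 2. Elsewhere the type 1 markers averaged 5.05 to 5.65 on the iNKT17 arrays, against 8.51 to 9.81 on the ROR- arrays. The list of endothelial and stromal genes averaged 4.61 to 4.84 on all 12 arrays, and the erythroid list has 1 gene of 5 here (3.59 to 4.06). The B cell list averaged 3.69 to 4.38, and its other 5 genes without Cd79b 3.36 to 3.66. Cd79b, a part of the B cell antigen receptor, was at 6.41, 5.90 and 6.75 in BALB/c iNKT17 cells, against 4.41, 4.70 and 4.39 in BALB/c ROR- cells. It was at 6.80 and 6.46 in B6 iNKT17 cells and at 7.48 and 8.24 in gamma-delta 17 cells, against 4.77 and 5.13 in B6 ROR- cells. It was called higher in all 3 type 17 groups, by 1.85 in BALB/c (limma adjusted p = 0.00049), by 1.68 in B6 (limma adjusted p = 0.00443) and by 2.91 in gamma-delta 17 cells (limma adjusted p = 8.49e-05). Cd79a, the partner of Cd79b in that receptor, was instead called lower in B6 iNKT17 cells, by -0.75 (limma adjusted p = 0.0466). Their part in the results below was not tested. Because the arrays read RNA from pools of cells, fewer cells that express a gene and less of its RNA per cell cannot be told apart.

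Gimap4 was at 10.03, 9.72 and 9.94 in BALB/c iNKT17 cells, against 10.70, 10.67 and 10.36 in BALB/c ROR- cells. In B6 mice it was at 8.41 and 7.60 in iNKT17 cells and at 9.13 and 9.12 in gamma-delta 17 cells, against 10.69 and 10.77 in ROR- cells. The ROR- arrays of both strains overlapped, the other groups were separate from each other, and the B6 iNKT17 arrays were the lowest of the 12. The difference between iNKT17 and ROR- cells was -0.68 in BALB/c, a 1.60-fold lower level, and -2.73 in B6, a 6.62-fold lower level. BALB/c minus B6 was 1.89 in iNKT17 cells and -0.15 in ROR- cells. B6 gamma-delta 17 minus B6 ROR- cells was -1.60. These values are what drew attention to the family.

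**Figure D1:**
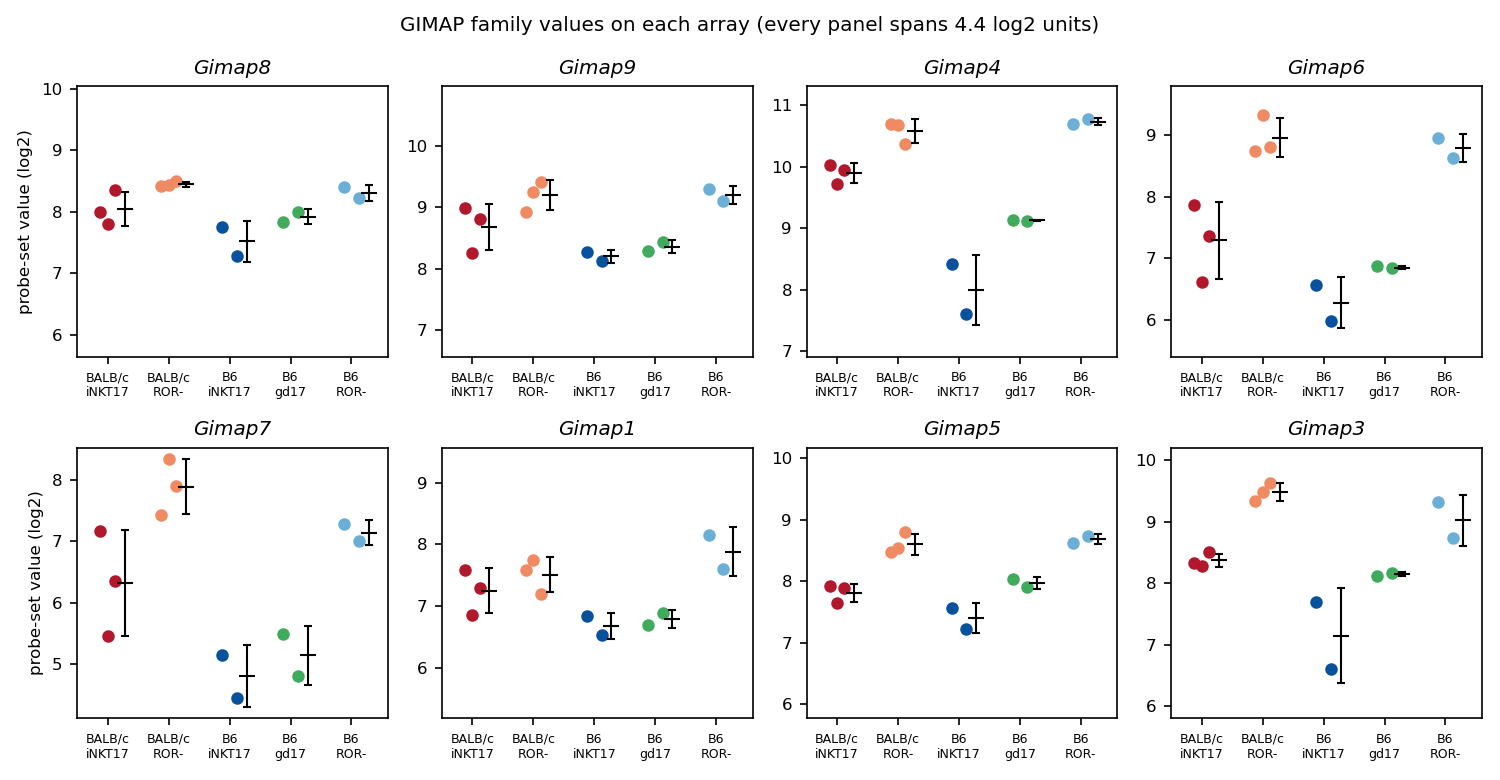
Log2 level of each GIMAP member (one panel per gene, own vertical axis) on the 12 arrays, grouped as BALB/c iNKT17, BALB/c ROR-, B6 iNKT17, B6 gamma-delta 17 (written gd17) and B6 ROR-. Points are arrays, and bars are the group mean ± SD (n = 3 or 2). All panels span the same range. The B6 iNKT17 mean is the lowest of the 5 for all 7 tested members and for Gimap4, by whose values the family was chosen.

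In B6 mice, iNKT17 cells had less of all 7 tested members than ROR- cells had, from 1.73-fold for Gimap8 to 5.69-fold for Gimap6. By limma with Benjamini-Hochberg adjustment over all 16667 genes, 7 of 7 passed the threshold of 0.05, where 3.16% of all genes tested were called lower and 2.83% higher. The arrays of all 7 were lower throughout in iNKT17 cells, which held for 23.9% of all genes. The median difference of the 7 was -1.28, and that of all genes tested was -0.01. Without B6 iNKT17 replicate 2 or B6 ROR- replicate 1, 3 of the 7 were called. In BALB/c mice, 4 of the 7 (Gimap6, Gimap7, Gimap5 and Gimap3) were called lower in iNKT17 cells, where 2.91% of all genes tested were called lower and 4.06% higher. The arrays of 5 of the 7 were lower throughout, which held for 10.1% of all genes. The median difference of the 7 in BALB/c was -0.79, and that of all genes was 0.00. Without BALB/c iNKT17 replicate 2 or BALB/c ROR- replicate 3, 2 of the 7 were called, and without BALB/c ROR- replicate 2, which carries the raised type 17 markers, 3 of the 7.

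Gimap5 and Gimap3, the survival factor and its close relative, were lower in iNKT17 cells of both strains. Gimap5 was at 7.92, 7.64 and 7.88 in BALB/c iNKT17 cells, against 8.47, 8.54 and 8.79 in BALB/c ROR- cells. It was at 7.57 and 7.22 in B6 iNKT17 cells, against 8.62 and 8.73 in B6 ROR- cells. No iNKT17 array reached a ROR- array in either strain. The difference was -0.79 (SE 0.14, limma adjusted p = 0.00394) in BALB/c and -1.28 (SE 0.17, limma adjusted p = 0.000623) in B6. Both calls held under all 21 alternatives of processing, described in the closing section.

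Gimap3 was at 8.33, 8.28 and 8.5 in BALB/c iNKT17 cells, against 9.33, 9.49 and 9.63 in BALB/c ROR- cells. It was at 7.69 and 6.60 in B6 iNKT17 cells, against 9.32 and 8.73 in B6 ROR- cells. The groups did not overlap in either strain, and B6 iNKT17 replicate 2 was the lowest of all arrays. The difference was -1.11 (SE 0.24, limma adjusted p = 0.0143) in BALB/c and -1.88 (SE 0.29, limma adjusted p = 0.0021) in B6. The BALB/c call was lost by a small margin without BALB/c iNKT17 replicate 1 or 2, with adjusted p = 0.0505 and 0.0511, and without BALB/c ROR- replicate 3, with adjusted p = 0.0602. Gimap3 and Gimap5 are similar in sequence, and whether their probes also capture the other's RNA was not checked here.

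Gimap1, needed for the maintenance of mature lymphocytes in the mouse, was lower in B6 iNKT17 cells. It was at 6.83 and 6.53 in B6 iNKT17 cells, against 8.16 and 7.60 in B6 ROR- cells, with no overlap and a difference of -1.21 (SE 0.26, limma adjusted p = 0.0163). In BALB/c it was at 7.58, 6.86 and 7.30 in iNKT17 cells, against 7.58, 7.75 and 7.20 in ROR- cells. The BALB/c groups overlapped, and the difference was -0.27 (95% interval -0.73 to 0.20). Its second, dimmer probe set differed by -0.50 in BALB/c. There it was at 4.17, 3.55 and 3.66 in iNKT17 cells, against 4.38, 4.21 and 4.29 in ROR- cells, without overlap. That probe set lay below the dim level of 3.45 on both B6 iNKT17 arrays and both gamma-delta 17 arrays. Its differences from B6 ROR- cells, -0.97 for B6 iNKT17 and -0.80 for gamma-delta 17 cells, are therefore of uncertain size. Leaving out B6 iNKT17 replicate 2 (adjusted p = 0.146) or B6 ROR- replicate 1 (adjusted p = 0.186) ended the B6 call.

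Gimap6, which binds an autophagy protein of the GABARAP family, had the largest difference of the tested members in both strains. It was at 7.86, 6.62 and 7.37 in BALB/c iNKT17 cells, against 8.74, 9.33 and 8.81 in BALB/c ROR- cells. It was at 6.57 and 5.99 in B6 iNKT17 cells, against 8.95 and 8.63 in B6 ROR- cells. The groups were separate in both strains, with wide scatter among the BALB/c iNKT17 arrays (SD 0.63, n = 3). The difference was -1.67 (SE 0.28, limma adjusted p = 0.00321) in BALB/c and -2.51 (SE 0.34, limma adjusted p = 0.000859) in B6, and both calls held under all 21 alternatives.

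Gimap7, whose human counterpart stimulates the GTPase activity of another family member, had the largest SD of the 8 members among the BALB/c iNKT17 arrays (0.86, n = 3). It was at 7.17, 5.46 and 6.35 in BALB/c iNKT17 cells, against 7.43, 8.34 and 7.90 in BALB/c ROR- cells. It was at 5.16 and 4.46 in B6 iNKT17 cells, against 7.28 and 7.0 in B6 ROR- cells. The difference was -1.56 (SE 0.38, limma adjusted p = 0.0297) in BALB/c and -2.33 (SE 0.47, limma adjusted p = 0.0107) in B6. Without BALB/c ROR- replicate 2, the array with raised type 17 markers, the BALB/c call was lost (adjusted p = 0.107), as it was without BALB/c iNKT17 replicate 2 or 3 (adjusted p = 0.0882 and 0.0896) or BALB/c ROR- replicate 3 (adjusted p = 0.0895). It was also lost with a trended robust fit (adjusted p = 0.0578) and with only the groups compared (adjusted p = 0.0684), each of which left 3 of the 7 members called in BALB/c. In B6 the call ended when iNKT17 replicate 2 (adjusted p = 0.114) or ROR- replicate 1 (adjusted p = 0.099) was left out.

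Gimap8, which carries several GTP-binding domains in one protein, and Gimap9 had the smallest differences in B6. Gimap8 was at 7.76 and 7.29 in B6 iNKT17 cells, against 8.40 and 8.22 in B6 ROR- cells, a difference of -0.79 (SE 0.19, limma adjusted p = 0.0337). Gimap9 was at 8.28 and 8.12 in B6 iNKT17 cells, against 9.29 and 9.10 in B6 ROR- cells, a difference of -0.99 (SE 0.23, limma adjusted p = 0.0227). In both the B6 arrays were separate. In BALB/c, Gimap8 was at 8.0, 7.81 and 8.35 in iNKT17 cells, against 8.42, 8.43 and 8.5 in ROR- cells, and the difference of -0.40 (SE 0.16, limma adjusted p = 0.202) was not called although the arrays were separate. Gimap9 was at 8.98, 8.25 and 8.81 in BALB/c iNKT17 cells, against 8.93, 9.25 and 9.41 in BALB/c ROR- cells, where the arrays overlapped and the difference of -0.52 (SE 0.19, limma adjusted p = 0.144) was not called. With single arrays left out, the B6 difference was -1.02 to -0.55 for Gimap8 and -1.09 to -0.9 for Gimap9. With only the groups compared, Gimap8 was not called in B6 (limma adjusted p = 0.0898), which left 6 of the 7 members called there. Both B6 calls lay near the threshold and did not hold without some of the arrays. That of Gimap8 ended on leaving out B6 iNKT17 replicate 2 (adjusted p = 0.315), either B6 ROR- array (adjusted p = 0.241 and 0.0884) and, by a small margin, BALB/c iNKT17 replicate 1 (adjusted p = 0.051). That of Gimap9 ended on leaving out any one B6 iNKT17 or B6 ROR- array (adjusted p = 0.0685 to 0.182).

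**Figure D2:**
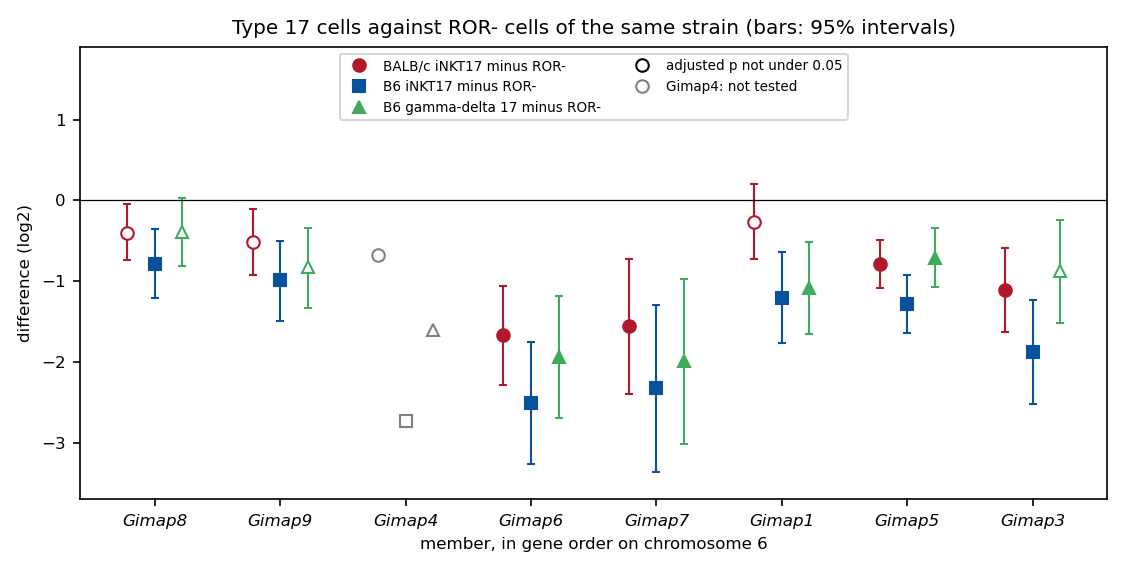
Log2 difference of each GIMAP member between type 17 cells and ROR- cells of the same strain, for BALB/c iNKT17 (circles), B6 iNKT17 (squares) and B6 gamma-delta 17 cells (triangles). Points are limma estimates with 95% intervals, open where not called and grey without intervals for the untested Gimap4, and all 7 tested squares are filled and below 0.

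Whether the iNKT17 difference depended on the strain was asked with the interaction, the BALB/c difference minus the B6 difference. It was above 0 for all 7 tested members, between 0.39 (Gimap8) and 0.94 (Gimap1), with a median of 0.77 against 0.02 for all genes tested. By limma 0 of 7 were called, where 0.084% of all genes were, and 2 of 7 (Gimap1 and Gimap5) had an unadjusted p under 0.05, as 2.26% of all genes had in this direction. For Gimap4 the same quantity was 2.05. The Gimap1 value rests on its brighter probe set. The dimmer one differed by -0.50 in BALB/c and by -0.97 in B6, where its iNKT17 values lay below the dim level. With single arrays left out, 0 of 7 were called throughout, but the median and the unadjusted count moved. Without B6 iNKT17 replicate 2 the median was 0.40 and 0 of 7 had an unadjusted p under 0.05, and without BALB/c iNKT17 replicate 1 the median was 0.44 and the count 1. The median was 1.09 without B6 iNKT17 replicate 1 and 0.82 without BALB/c iNKT17 replicate 2, with a count of 5 in both. The count was 0 without B6 ROR- replicate 1, and without BALB/c ROR- replicate 2, the array with raised type 17 markers, it was 2 with a median of 0.77.

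The strains were also compared within each cell type. In iNKT17 cells, all 7 estimates of BALB/c minus B6 were above 0, from 0.42 (Gimap5) to 1.51 (Gimap7), with a median of 0.57 against 0.03 for all genes tested. Gimap3 alone was called, at 1.23 (SE 0.27, limma adjusted p = 0.0458), where 0.672% of all genes were called higher in BALB/c. The arrays of 6 of the 7 were higher throughout in BALB/c, which held for 17.8% of all genes, and Gimap9 was the exception. All 7 had an unadjusted limma p under 0.05, which 6.09% of genes had in this direction. Without B6 iNKT17 replicate 2 the median was 0.42, 1 of 7 had an unadjusted p under 0.05 and 0 were called, with Gimap3 at 0.69 (adjusted p = 0.5). Without BALB/c iNKT17 replicate 2 the median was 0.76 and 3 of 7 were called, Gimap6 and Gimap7 being added. The Gimap3 call was also lost without BALB/c iNKT17 replicate 1 or 3, any one BALB/c ROR- array or either gamma-delta 17 array.

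In ROR- cells, members lay on both sides of 0 between the strains, from -0.37 (Gimap1) to 0.75 (Gimap7), with a median of 0.14, which was -0.02 without BALB/c ROR- replicate 2. By limma 0 of 7 were called, where 1.22% of all genes were, and 0 of 7 had an unadjusted p under 0.05, where 11.9% of all genes had. The second, dimmer probe set of Gimap1 differed by 0.44 here, the other way from the -0.37 of the brighter one. Gimap9 averaged 9.20 in both strains (SD 0.25, n = 3 in BALB/c and SD 0.14, n = 2 in B6). With so few arrays these intervals were wide, and that of Gimap7 was -0.19 to 1.68.

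B6 gamma-delta 17 cells, the second type 17 population, were compared with the same B6 ROR- arrays. There, 4 of 7 members (Gimap6, Gimap7, Gimap1 and Gimap5) were called lower, where 3.41% of all genes were called lower and 2.61% higher. The median difference was -0.88, against 0.01 for all genes. Gimap6 was at 6.87 and 6.84 in gamma-delta 17 cells, against 8.95 and 8.63 in ROR- cells, a difference of -1.94 (SE 0.34, limma adjusted p = 0.00494). Gimap7 was at 5.49 and 4.81 in gamma-delta 17 cells, against 7.28 and 7.0 in ROR- cells, a difference of -1.99 (SE 0.47, limma adjusted p = 0.0269). In both, the gamma-delta 17 arrays lay well below the ROR- ones. Gimap1 was at 6.69 and 6.89 in gamma-delta 17 cells, against 8.16 and 7.60 in ROR- cells, a difference of -1.09 (SE 0.26, limma adjusted p = 0.0286). Gimap5 was at 8.04 and 7.90 in gamma-delta 17 cells, against 8.62 and 8.73 in ROR- cells, a difference of -0.71 (SE 0.17, limma adjusted p = 0.0266).

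The other 3 did not pass in this fit. Gimap9 was at 8.29 and 8.43 in gamma-delta 17 cells, against 9.29 and 9.10 in ROR- cells, a difference of -0.83 (SE 0.23, limma adjusted p = 0.0547). Gimap3 differed by -0.88 (SE 0.29, limma adjusted p = 0.115) and Gimap8 by -0.39 (SE 0.19, limma adjusted p = 0.324). The arrays of all 7 members were lower throughout in gamma-delta 17 cells, which held for 24.7% of all genes. Without gamma-delta 17 replicate 1, the array with neutrophil markers, 2 of 7 were called and the median was -0.85. Gimap6 then differed by -1.95 (adjusted p = 0.0306) and Gimap7 by -2.33 (adjusted p = 0.0478), the remaining gamma-delta 17 array being assumed to vary like the other groups. The count was 1 without gamma-delta 17 replicate 2, 2 without B6 ROR- replicate 2 and 0 without B6 ROR- replicate 1. Other settings moved the calls near the threshold. Gimap9 was called under 8 of the 21 alternatives (lowest adjusted p = 0.0165) and Gimap3 under 2 (adjusted p = 0.0234 in both), and Gimap5 was lost with quantile normalization (adjusted p = 0.052) and Gimap7 with a trended robust fit (adjusted p = 0.0525).

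B6 iNKT17 and B6 gamma-delta 17 cells were compared directly. All 7 estimates were below 0, from -0.11 (Gimap1) to -1.0 (Gimap3), with a median of -0.40 against 0.01 for all genes. By limma 0 of 7 were called, where 0.168% of all genes were, and 2 of 7 had an unadjusted p under 0.05, as 4.6% of all genes had in this direction. The arrays of 5 of the 7 were lower throughout in iNKT17 cells, which held for 20.7% of all genes. The 2 members were Gimap3, at 7.69 and 6.60 in iNKT17 cells against 8.12 and 8.17 in gamma-delta 17 cells, and Gimap5, at 7.57 and 7.22 against 8.04 and 7.90. The median was -0.69 without B6 iNKT17 replicate 1, and 3 of 7 then had an unadjusted p under 0.05. Without B6 iNKT17 replicate 2, 5 of 7 estimates were below 0 and the median was -0.16, and without gamma-delta 17 replicate 1, 6 of 7 were below 0 and the median was -0.48. The comparisons above share arrays, since B6 ROR- and B6 iNKT17 each enter several of them, so that members moving alike in these comparisons are not separate observations.

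Ordered by group mean, B6 iNKT17 was the lowest of the 5 groups for all 7 tested members. The same held for Gimap4, by whose values the family was chosen. B6 gamma-delta 17 was the next lowest for all members but Gimap5, for which BALB/c iNKT17 was. The arrays of B6 iNKT17 and the next group overlapped for Gimap7 and Gimap1. They were separate for Gimap8, Gimap9, Gimap6, Gimap5 and Gimap3, and for Gimap4. Of all genes tested, 20.7% were lower throughout in B6 iNKT17 than in gamma-delta 17 cells. The share was 17.8% for B6 iNKT17 against BALB/c iNKT17 cells. The 2 ROR- groups held the highest means for all 7 tested members and for Gimap4. Their arrays overlapped for Gimap9, Gimap4, Gimap6, Gimap1 and Gimap5. Among iNKT17 arrays, replicate 2 of BALB/c was the lowest of its group for all 8 members, and replicate 2 of B6 likewise. In the other groups no array was the lowest for all 8: each gamma-delta 17 array was the lower one for 4 members, and in each ROR- group 1 array was the lowest for 6 and another for 2. The mean of the resting T cell list described below was likewise lowest within its group on those 2 iNKT17 arrays, at 6.98 in BALB/c and 6.67 in B6. Over the 12 arrays the correlation between members was 0.75 to 0.96 (28 pairs, median Pearson r 0.88), and for deviations from the group means it was 0.10 to 0.94 (median 0.57). All pairs share the same arrays, and these values are descriptive.

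**Figure D3:**
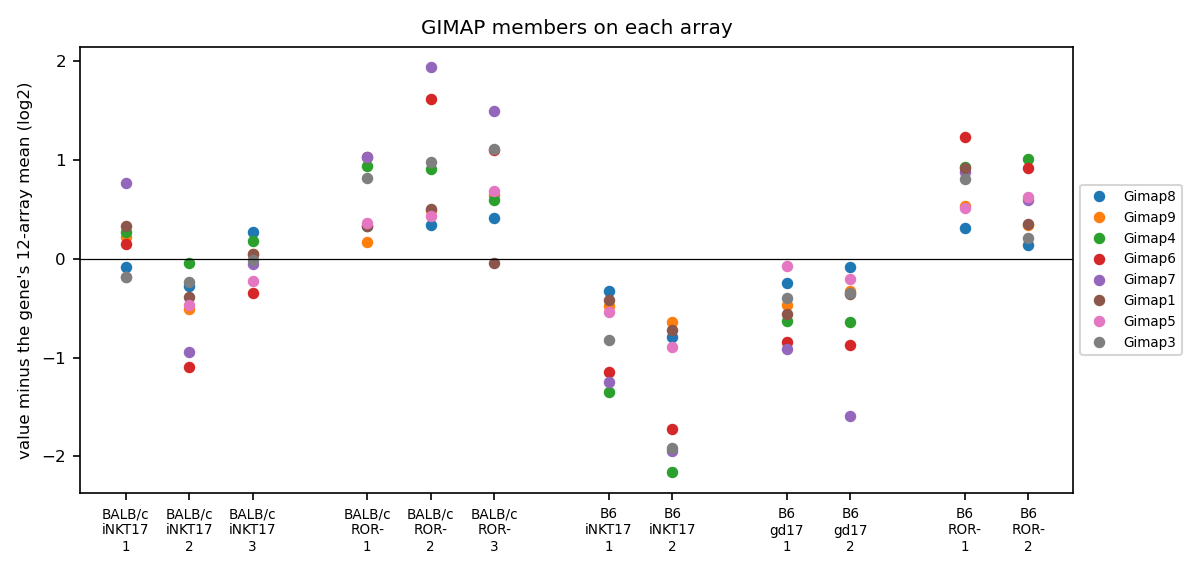
Log2 level of each GIMAP member as its deviation from its own mean over the 12 arrays, with arrays along the horizontal axis by group and replicate number. Colours are members, gd17 is gamma-delta 17, and replicate 2 is the lowest array of its group for all 8 members in BALB/c iNKT17 and in B6 iNKT17.

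The genes around the cluster behaved differently from one another. Of the 10 nearest protein-coding genes, 5 on each side, 8 have a probe set with a single symbol, and 5 of these passed the dim filter. Lrrc61, Repin1 and Zfp775 were not called in any of the comparisons with ROR- cells. Repin1, a zinc finger protein, differed by -0.23 in BALB/c and -0.40 in B6 between iNKT17 and ROR- cells, and Zfp775 by 0.01 and 0.03. Tmem176b and Tmem176a, which encode related membrane proteins of intracellular compartments, were instead higher in iNKT17 cells. Tmem176b was at 10.08, 10.03 and 10.26 in BALB/c iNKT17 cells, against 7.70, 8.12 and 6.84 in BALB/c ROR- cells. The difference was 2.58 (limma adjusted p = 0.000185) in BALB/c and 2.15 (limma adjusted p = 0.0033) in B6, and for Tmem176a it was 2.48 (limma adjusted p = 0.000255) and 2.26 (limma adjusted p = 0.0025). In gamma-delta 17 cells the pair was higher than in B6 ROR- cells by 2.14 and 2.30. Without BALB/c ROR- replicate 2 or gamma-delta 17 replicate 1 the pair was still called in the comparison that array enters (adjusted p = 0.000135 to 0.0105). The members called in these comparisons were all lower.

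**Figure D4:**
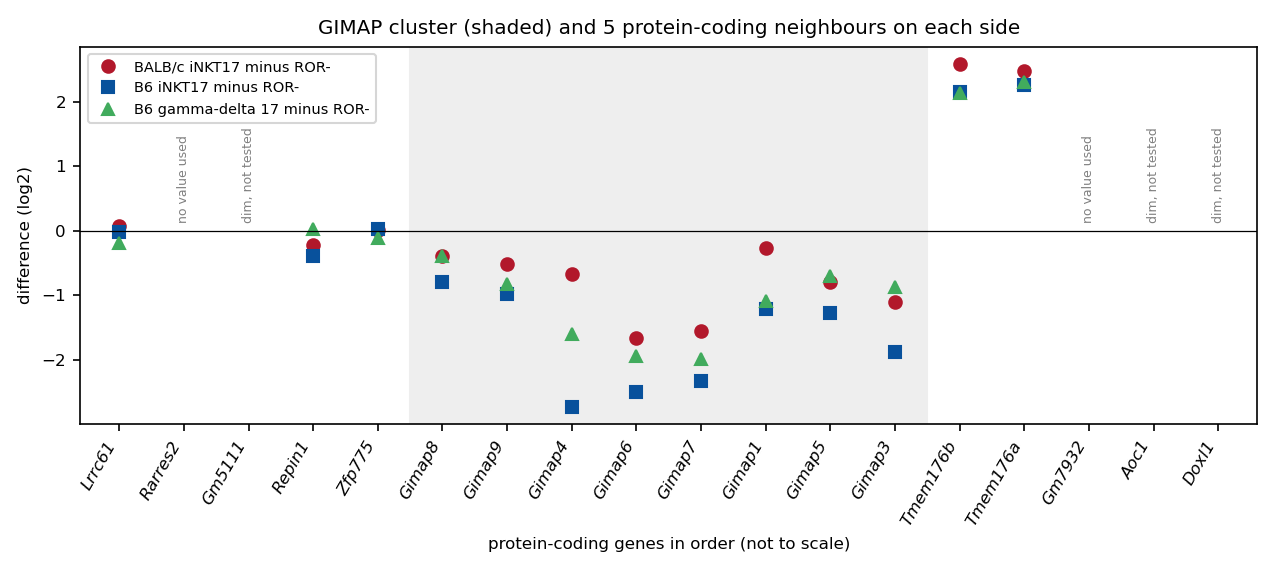
Log2 differences of the GIMAP genes and their neighbours in chromosomal order (not to scale, cluster shaded), for BALB/c iNKT17 (circles), B6 iNKT17 (squares) and B6 gamma-delta 17 cells (triangles), each minus ROR- cells of the same strain. Points are estimates without error bars, genes with no value used or too dim are marked, and Tmem176b and Tmem176a lie above 0 where the GIMAP genes lie below it.

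Genes whose pattern was most like that of Gimap4 were ranked by Pearson r over the 12 arrays, among 16666 genes. The 5 highest outside the family were Anxa1 (r = 0.96), Dennd11 (0.944), Vav3 (0.944), Sos2 (0.937) and Rpl22 (0.936). Anxa1 encodes annexin A1, a phospholipid-binding protein, Vav3 and Sos2 encode exchange factors for small GTPases, and Rpl22 encodes a ribosomal protein. Of the family, Gimap3 ranked highest (r = 0.925, rank 7), followed by Gimap6 and Gimap8 (both 0.905, ranks 16 and 17), and Gimap1 was the lowest (0.857, rank 94). The 5 most opposite genes were Lrrc49 (r = -0.961), Itsn1 (-0.954), Kcnk6 (-0.931), Nox1 (-0.931) and Trim24 (-0.928). The 12 points fall into 5 groups, so these values describe the group pattern and carry no test.

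Proteins that GIMAP members are reported to bind, of the BCL2 family and of the autophagy machinery, were listed with their close relatives, and 12 of 13 were tested. Most did not pass the test. In BALB/c iNKT17 cells 1 was called higher and 1 lower, where 4.06% and 2.91% of all genes tested were. In B6 iNKT17 cells 2 were called lower, where 3.16% of all genes were. In gamma-delta 17 cells 1 was called lower, where 3.41% of all genes were. Calls this few out of 12 are not a result about the list as a whole. Bcl2l11, which encodes the death-promoting BIM, was called lower in all 3 type 17 groups against the ROR- cells of their strain. It was at 6.28, 6.05 and 6.27 in BALB/c iNKT17 cells, against 6.84, 6.90 and 6.80 in BALB/c ROR- cells, a difference of -0.64 (SE 0.11, limma adjusted p = 0.00305). In B6 it was at 6.05 and 5.99 in iNKT17 cells and 5.77 and 5.93 in gamma-delta 17 cells, against 6.65 and 6.78 in ROR- cells. The differences were -0.70 (limma adjusted p = 0.00728) and -0.86 (limma adjusted p = 0.00187), and the arrays were separate in each case. The other calls were Gabarapl1, an autophagy gene, at 0.54 (limma adjusted p = 0.0452) in BALB/c iNKT17 cells, and Bid, another death-promoting gene, at -0.53 (limma adjusted p = 0.0453) in B6 iNKT17 cells. Without B6 iNKT17 replicate 2 or B6 ROR- replicate 2, 0 of the 12 were called in B6 iNKT17 minus ROR-, and leaving out any one other array except the 2 gamma-delta 17 arrays and BALB/c ROR- replicate 3 left 1 call there. In BALB/c 1 call was left without BALB/c iNKT17 replicate 3 or any one ROR- or B6 iNKT17 array. Without BALB/c ROR- replicate 2 the call of Gabarapl1 was lost (adjusted p = 0.106) and that of Bcl2l11 was not (adjusted p = 0.0139), and without gamma-delta 17 replicate 1 Bcl2l11 was called there (adjusted p = 0.0186). Gabarapl2, a reported partner of Gimap6, differed by -0.37 and -0.38 in BALB/c and B6 iNKT17 cells and was not called in either (limma adjusted p = 0.205 and 0.339). The median difference of the 12 was 0.25 in BALB/c and 0.02 in B6, where the 7 GIMAP members were at -0.79 and -1.28.

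Genes of resting, recirculating T cells were followed beside the family, and 19 of 20 were tested. Between iNKT17 and ROR- cells, 8 of 19 were called lower in BALB/c and 8 in B6, with 0 called higher, and between gamma-delta 17 and ROR- cells 5 were called lower. Of all genes tested, 2.91%, 3.16% and 3.41% were called lower in these comparisons, and 4.06%, 2.83% and 2.61% higher. Both B6 counts include Dapl1, which was above the dim level on the 2 B6 ROR- arrays alone (3.53 and 3.94) and so passed the filter through the group in which it is high. Without it they were 7 and 4 of 18. The differences were largest for S1pr1, the receptor for exit from lymphoid organs, at -3.82 in BALB/c and -4.26 in B6, and for the transcription factor Lef1 at -3.16 and -3.69. Igfbp4 differed by -2.57 and -2.84. Satb1, a chromatin organiser, differed by -1.10 in BALB/c and -2.40 in B6. It was also higher in BALB/c than in B6 iNKT17 cells, by 1.67 (SE 0.29, limma adjusted p = 0.0149), the single call of the 19 in that comparison. This strain call did not hold in every fit with a single array left out. Without BALB/c ROR- replicate 2 the BALB/c call of Satb1 was lost (adjusted p = 0.0779). The list's median difference was -0.99 in BALB/c and -1.05 in B6, against 0.00 and -0.01 for all genes tested. In gamma-delta 17 minus B6 ROR- cells, Igfbp4 was at -2.13 and Satb1 at -2.62, both called. S1pr1 at -1.29 and Lef1 at -1.46 were not called there (limma adjusted p = 0.114 and 0.0923). Without gamma-delta 17 replicate 1, the array with neutrophil markers, these genes were at -2.45, -3.22, -1.84 and -2.45, in that order. The B6 count of 8 was 4 without B6 iNKT17 replicate 2 and 5 without any other one of the B6 iNKT17 and ROR- arrays. The gamma-delta 17 count of 5 was 2 without gamma-delta 17 replicate 2 or B6 ROR- replicate 2, and 3 without B6 ROR- replicate 1, either B6 iNKT17 array or BALB/c iNKT17 replicate 3. Of 10 regulators reported to control GIMAP genes in human T helper cells, Il12rb2, Tbx21 and Il4ra were called lower in both iNKT17 comparisons and in the gamma-delta 17 one, and Runx1 was called higher in both iNKT17 comparisons, by 0.84 in BALB/c and 0.70 in B6. Il12rb1, a chain of the interleukin-12 receptor, was called higher in BALB/c iNKT17 cells by 1.01 (SE 0.20, limma adjusted p = 0.00895), and at 0.64 in B6 iNKT17 cells and 0.58 in gamma-delta 17 cells it was not called (limma adjusted p = 0.201 and 0.231). Gata3, a type 2 transcription factor, was called lower in B6 iNKT17 cells (-0.85) and in gamma-delta 17 cells (-1.33). Of the 5 regulators called in B6 iNKT17 cells, 3 were called without either B6 iNKT17 array or without B6 ROR- replicate 1. Without BALB/c ROR- replicate 2 the 5 regulators called in BALB/c were all called, and without gamma-delta 17 replicate 1 the 4 called there were. How these genes bear on the GIMAP levels was not tested.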

How the data were processed

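Each of 12 samples was read on 1 Affymetrix whole-transcript array. The deposited table holds 41345 probe sets on a log2 scale. It was made with oligo, an R package, per the submitters' processing notes. For its version, the log base, the background correction and the normalization, the sources used here give nothing, and log2 was taken because oligo writes it. Array medians were 4.10 to 4.30, and replicates of a group correlated at 0.973 to 0.986. Names come from the platform annotation, which can be old: 23521 had 1 symbol, 1814 several and 16010 none. Of the first, 23328 matched RefSeq, with 0 symbols changed. For each gene the brightest probe set was kept, and genes with at least 2 arrays above the 30th percentile (3.45, the dim level) were tested.

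A group-means model over all 12 arrays was fitted with limma 3.58.1 in R 4.3.3 (7 residual and 4.50 prior degrees of freedom), with Benjamini-Hochberg adjustment over 16667 genes and a threshold of 0.05. The fit was tested on simulated data. The number of arrays, 2 or 3 a group, limits the precision. The members and lists were chosen with earlier results of these data known. Named genes are all members, up to 5 neighbours a side, the 5 most and least like Gimap4, label-checking genes and up to 4 called genes each way of a list.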

Additional observations from a re-analysis of the deposited data

How the results depend on the processing

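Every comparison was recomputed under 21 alternatives: the replicate number as a block, 2 other scalings, 2 other dim filters, a trended robust fit, array weights, only the groups compared, the mean of all probe sets of a gene, and leaving out each of the 12 arrays. Leaving out 1 array of a pair leaves a lone array that is assumed to vary like the other groups. Of the 7 tested members, Gimap6 and Gimap5 kept their calls in both iNKT17 minus ROR- comparisons under all 21, as did Gimap3 in B6. The count of members called higher in BALB/c than in B6 iNKT17 cells (1, Gimap3) was 0 with quantile normalization, with no dim filter and with only the groups compared, 2 with array weights, and 0 to 3 when arrays were left out. Leaving out single arrays gave 2 to 4 of 7 called in BALB/c iNKT17 minus ROR-, 3 to 7 in the B6 one, 0 to 5 in gamma-delta 17 minus ROR-, and 0 in the interaction, in the strain comparison of ROR- cells and in iNKT17 minus gamma-delta 17. The lowest counts were 2 without BALB/c iNKT17 replicate 2 or BALB/c ROR- replicate 3, 3 without B6 iNKT17 replicate 2 or B6 ROR- replicate 1, and 0 (gamma-delta 17) without B6 ROR- replicate 1. That gamma-delta 17 count was 1 without replicate 2 of its group and 2 without B6 ROR- replicate 2, and it was 5 with median centring, a stricter dim filter or array weights and 3 with quantile normalization. The cause of these changes was not tested beyond the loss of samples.

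With the replicate number as a block the count for BALB/c minus B6 in iNKT17 cells was 0, and the count of members called changed in no other comparison. The calls of the partner list in B6 iNKT17 minus ROR- were 1 in place of 2 with it, and those of the resting T cell list in gamma-delta 17 minus ROR- were 3 in place of 5. After group means were removed, the 3 same-numbered pairs of BALB/c iNKT17 with BALB/c ROR- arrays correlated at -0.46, -0.34 and 0.141. Those among BALB/c iNKT17, B6 iNKT17 and B6 ROR- arrays did at 0.186 to 0.465. Same-numbered pairs of BALB/c ROR- with B6 iNKT17 or B6 ROR- arrays were at -0.387 to -0.072. Those with gamma-delta 17 arrays were at -0.12 to 0.113. A pair with different numbers, BALB/c ROR- replicate 1 and BALB/c iNKT17 replicate 2, had the highest value, 0.519. The labels do not say that a number marks a shared origin, so pairing was not established. With the block Gimap3 in that strain comparison was 1.16 (adjusted p = 0.0829). Signs turned only for values not called in the main fit. The furthest from 0 in that fit was Gimap1 in BALB/c minus B6 ROR- cells, at -0.37. Gimap7 in B6 iNKT17 minus gamma-delta 17 was at -0.34 in it. Gimap9 in BALB/c minus B6 ROR- cells was -0.08 with the block, -0.07 with arrays centred on their medians, -0.04 with array weights and -0.10 to 0.14 with arrays left out. In the same comparison Gimap1 was 0.03 with the mean of its probe sets, and Gimap6 was -0.02 to 0.33 with arrays left out. In B6 iNKT17 minus gamma-delta 17, Gimap1 was 0.00 with median centring and -0.26 to 0.03 with arrays left out, and Gimap7 was -0.69 to 0.01. Median centring moved the median of all genes to 0.12 in that comparison.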
